A study of Mus musculus with 8 samples.

Results

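Genes of mitosis and the spindle were described across all arrays of a study of Ascl2 and Tcf7l2 in organoids of mouse small intestine, cultures of epithelium that form buds like crypts. The group holds 52 genes, chosen by name for their known place in cell division, of 19166 genes that passed the signal filter. The choice was made with earlier results of these data known. All 52 were found on the array under their own symbols, with 92 probes, of which 83 passed the filter of being well above background in a channel on at least 2 of 8 arrays. Each 2-colour array carried RNA of 1 organoid culture (its own RNA) beside RNA of a control culture, and every value below is a log2 ratio of own RNA over control unless stated otherwise.

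Every culture was given 4OH-tamoxifen for 16 h, which switches on the CreERT2 recombinase. Experiment 2 held 1 array each of organoids labelled Tcf7l2null/Ascl2 OE (Tcf7l2 deleted and Ascl2 expression induced by the pulse), Ascl2 OE (Ascl2 expression induced) and Tcf7l2null (Tcf7l2 deleted), all against organoids transduced with dsGFP, whose GFP was induced by the same pulse, and 1 self-self array with dsGFP material in both colours. Experiment 1 held 2 arrays of organoids transduced with Ascl2 under a CMV promoter, extracted after 24 h, against VillinCreERT2 organoids, with the dyes exchanged on replicate 2. Experiment 3 held 1 array of Ascl2null organoids (Ascl2 deleted by the pulse) set against VillinCreERT2 organoids, together with 1 self-self array, whose genotype field says VillinCreERT2 while its description names Ascl2loxp/loxp organoids. VillinCreERT2 is the recombinase under the Villin promoter, which is active in intestinal epithelium; a culture is an uncounted population of organoids, and nothing in the labels tells whether both replicates of experiment 1 were grown separately, so their p-values cover the spread between arrays alone, which may be technical. The self-self arrays carry the same material in both colours and show the dye and technical spread.

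As background, a cell enters mitosis when cyclin B bound to the kinase Cdk1 becomes active. Condensin then compacts the chromosomes, kinetochores attach them to spindle microtubules, and the spindle checkpoint holds back the anaphase-promoting complex until every chromosome is attached; that complex, with Cdc20 and the ubiquitin-conjugating enzyme Ube2c, then marks cyclin B and securin (Pttg1) for destruction, which frees separase (Espl1) to part the sister chromatids. In the intestine these genes mark the dividing cells of the crypt, the stem cells and transit-amplifying progenitors, and they are low in most differentiated cells. Many of them peak late in the cell cycle, and a short promoter element with the letters TTTGAA or TTTAAA, the cell cycle genes homology region, often beside CCAAT boxes, is a known feature of their promoters.

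RefSeq promoter windows of GRCm38.p6, 250 bases before to 50 bases after each start, were matched by symbol for 44 of the 52 genes (46 windows). The letters TTTGAA, on either strand (TTCAAA on the other), were found in 31 of 44 (70.5%), against 20.2% of 27025 genes with a window. TTTAAA was found in 9 of 44 (20.5%), against 14.9%, and CCAAT on either strand (ATTGG on the other) in 31 of 44 (70.5%), against 41.1%. A window with CCAAT and at least 1 of the other letter strings was found for 28 of 44 (63.6%), against 13.4%. These motifs do not share letters in the stretches below, and a match is a description of letters, not a binding site. Ccna2, Aurkb, Foxm1, Kif20a, Smc4, Spc24, Tpx2 and Incenp had no window in the table.

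The 150 bases before the start are shown for 5 genes that the results turn on and for Pttg1, the member whose values went against the others; capitals mark the letter strings searched for.
Cdc20 (chr4:118437344-118437493, minus strand): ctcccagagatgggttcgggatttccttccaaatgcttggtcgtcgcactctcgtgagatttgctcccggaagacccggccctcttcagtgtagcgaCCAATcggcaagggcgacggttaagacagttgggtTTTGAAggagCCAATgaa
Ccnb1 (chr13:100786487-100786636, minus strand): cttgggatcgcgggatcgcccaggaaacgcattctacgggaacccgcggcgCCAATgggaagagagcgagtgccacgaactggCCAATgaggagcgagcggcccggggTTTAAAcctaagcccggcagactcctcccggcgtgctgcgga
Ube2c (chr2:164769779-164769928, plus strand): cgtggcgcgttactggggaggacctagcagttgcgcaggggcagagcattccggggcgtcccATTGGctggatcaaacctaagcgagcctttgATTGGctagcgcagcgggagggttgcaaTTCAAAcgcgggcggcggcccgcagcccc
Cdk1 (chr10:69352913-69353062, minus strand): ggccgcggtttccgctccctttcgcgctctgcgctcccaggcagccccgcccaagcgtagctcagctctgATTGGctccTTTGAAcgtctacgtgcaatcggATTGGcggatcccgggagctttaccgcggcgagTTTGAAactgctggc
Mki67 (chr7:135716380-135716529, minus strand): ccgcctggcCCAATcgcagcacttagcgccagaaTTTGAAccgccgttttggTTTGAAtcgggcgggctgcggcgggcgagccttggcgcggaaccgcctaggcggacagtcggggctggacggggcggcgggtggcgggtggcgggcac
Pttg1 (chr11:43425982-43426131, minus strand): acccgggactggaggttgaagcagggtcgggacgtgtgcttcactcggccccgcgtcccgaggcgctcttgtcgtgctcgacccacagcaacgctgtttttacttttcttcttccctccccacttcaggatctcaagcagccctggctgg
Cdc20 has CCAAT at both sides of its TTTGAA, whose first base lies 18 bases before the start (position -18), and Ccnb1 has TTTAAA at -42. Cdk1 and Mki67 each have TTTGAA at 2 places, and Ube2c has TTCAAA at -29. In the whole window of Pttg1 none of these letter strings was found, which says only that the letters are not in it. The windows of Melk, Nuf2, Ncaph, Nusap1, Mad2l1 and Kif18a had none of them either. These genes were lower than control on the Tcf7l2null/Ascl2 OE array, from -1.56 for Melk to -0.465 for Kif18a, so the lack does not set Pttg1 apart. Among the 44 genes, the 28 with both kinds of motif had a median of -0.96 on the Tcf7l2null/Ascl2 OE array. The 16 lacking at least 1 kind had -0.70. On the Tcf7l2null array these medians were 0.51 and 0.43. Splits by a single motif gave smaller gaps on the first array. With and without TTTGAA on either strand the medians there were -0.93 and -0.88. For TTTAAA they were -0.92 and -0.89, and for CCAAT -0.94 and -0.75. On the Tcf7l2null array the same splits gave, in that order, 0.48 and 0.58, 0.51 and 0.47, and 0.50 and 0.44. All are given as descriptions.

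The labelled tissue and genotypes were examined before the results. All 9 epithelial identity markers on the array, among them Epcam, Cdh1, Krt8 and Cdx2, were well above background on each of the 8 arrays, while of 18 markers of fibroblasts, endothelium, immune and neural cells 8 to 16 were, and Cdh5 on none. The share of spots well above background was 50.1% to 61.1% in Cy3 and 53.8% to 67.4% in Cy5, and no spot was saturated. The only Ascl2 probe was lower, not higher, than control on the arrays labelled Tcf7l2null/Ascl2 OE (-0.93) and Ascl2 OE of experiment 2 (-0.72), and stood at -0.31 and 0.12 on the Ascl2 OE arrays of experiment 1; it was -1.07 on the Ascl2null array. The 3 Tcf7l2 probes ranged from -0.34 to 0.18 on the arrays labelled as lacking Tcf7l2. Whether these probes lie in the transduced or deleted part was not analysed here, so they do not check the labels, and all directions below are for the arrays as labelled. Over all probes kept, replicates 1 and 2 of Ascl2 OE in experiment 1 correlated at 0.35, and replicate 2 correlated at -0.33 with the Tcf7l2null/Ascl2 OE array, -0.19 with the dsGFP self-self array and 0.46 with the VillinCreERT2 self-self array; the dyes in the labels were used for the directions.

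In organoids labelled Tcf7l2null/Ascl2 OE, mitosis and spindle genes were lower than in dsGFP controls: 51 of 52 lay below 0 (48.9% of all genes did), with a median of -0.93, and 24 of 52 were at least 2-fold lower, against a background of 1.86% of all genes. In organoids labelled Tcf7l2null the same genes were higher: 52 of 52 lay above 0 (50.4% of all genes), with a median of 0.49. The range was 0.046 for Smc2 to 0.87 for Cks2, and none reached 2-fold (0.365% of all genes did). With the brightest probe of each gene 51 of 52 were above 0 there and 1 below. On the Ascl2 OE array of the same experiment the median was -0.079, with 36 of 52 below 0 (48.4% of all genes) and none at 2-fold (1.02% of all genes were at least 2-fold higher and 0.773% lower). But with median centring in place of loess 20 of 52 were below 0 on that array, and the median was 0.065, beside 0.049 for all genes. The dsGFP self-self array gave a median of -0.044 over 51 genes, with values from -0.44 to 0.39. Each of these conditions has 1 array and so no replicate check, and the 3 arrays share the dsGFP control. The sizes depend on the processing: on the Tcf7l2null/Ascl2 OE array 14 to 45 of 52 genes were at least 2-fold lower over the 10 alternatives, and on the Tcf7l2null array the median was 0.92 with median centring (0.79 above that of all genes) and 16 of 52 were at 2-fold. Shares of all genes at 2-fold are given for the reported processing alone, so the counts under alternatives stand without a background.

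**Figure D1:**
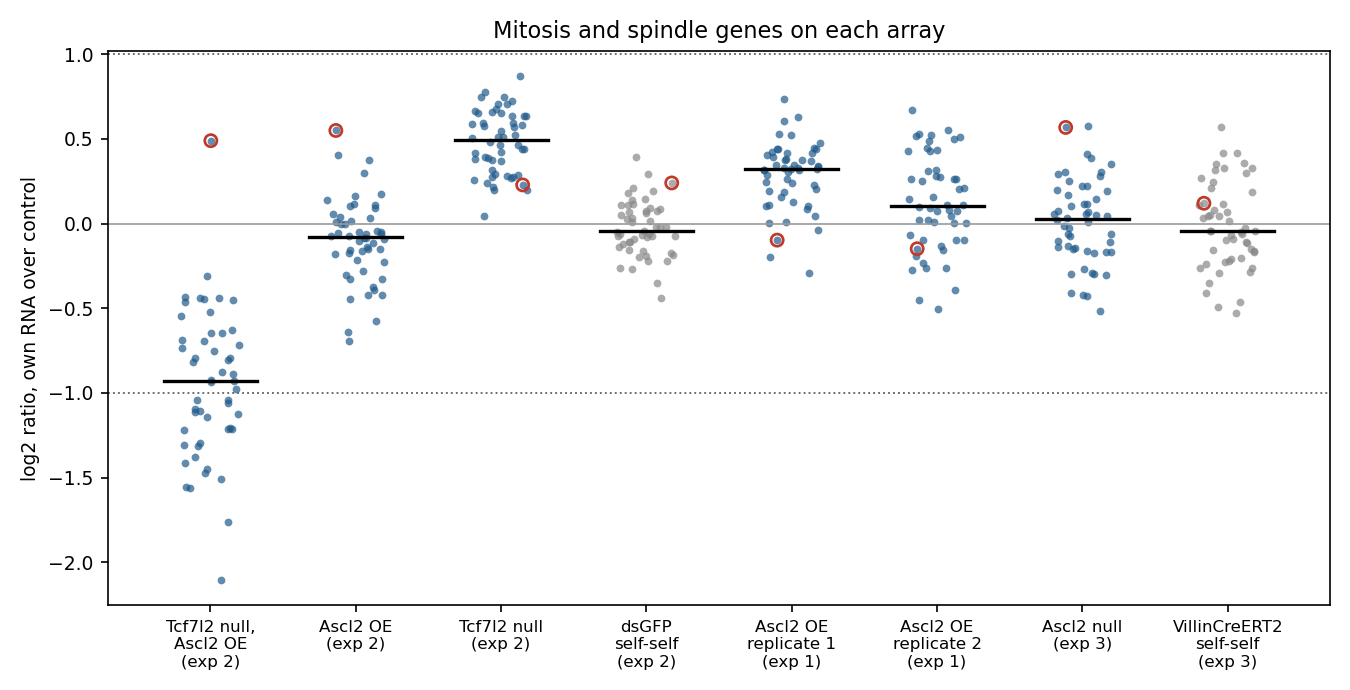
Log2 ratio of own RNA over control for each of the 52 genes (points) on each of the 8 arrays, with self-self arrays in grey, the median as a black bar, Pttg1 ringed in red and dotted lines at 2-fold. The Tcf7l2null/Ascl2 OE array has its median at -0.93 and Pttg1 alone above 0, and the Tcf7l2null array has all genes above 0.

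Set against the technical spread, 50 of 52 genes were below both self-self arrays on the Tcf7l2null/Ascl2 OE array (32.6% of all genes), and 49 of 52 were above both on the Tcf7l2null array (33.9% of all genes). The exceptions on the first were Pttg1, which was above both, and Anln (-0.31, against -0.35 on the VillinCreERT2 self-self array). On the Tcf7l2null array they were Mki67 (0.24) and Ncapd2 (0.26), against 0.27 and 0.42 on the VillinCreERT2 self-self array. Pttg1 (0.23, against 0.24 on the dsGFP self-self array) was the other. In 51 of 52 genes the Tcf7l2null array was highest, the Ascl2 OE array next and the Tcf7l2null/Ascl2 OE array lowest, an order that 25.9% of all genes had. The median of the members was -1.40 for Tcf7l2null/Ascl2 OE minus Tcf7l2null, with 51 of 52 below 0 (47.5% of all genes) and 43 of 52 at least 2-fold lower (3.94%), and -0.84 for Tcf7l2null/Ascl2 OE minus Ascl2 OE, with 21 of 52 at least 2-fold lower (1.23% of all genes). In that second difference all 52 lay below 0, where 49.5% of all genes did.

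Just past the 2-fold line on the Tcf7l2null/Ascl2 OE array were Kif4 (-1.04) and Spc25 (-1.04), and just short of it Cdca3 (-0.98) and Espl1 (-0.94). All 52 were well above background in both colours on every array, except Ttk in the own-RNA colour of the Tcf7l2null/Ascl2 OE array. Its ratio there, 1.46-fold lower than dsGFP, rests on a signal not well above background. That value is uncertain, gives Ttk no rank and leaves it uncounted at 2-fold. Among the other 51 genes the 3 lowest were Kif20a, Mki67 and Prc1, and the 3 highest Pttg1, Anln and Kif20b; with the scanner's own ratio Kif20a (-2.15) and Ncaph (-1.97) were the lowest of the 51, and Ttk had -2.31. On the Tcf7l2null array the 3 highest were Cks2, Ube2c and Ncapg (0.75), and the 3 lowest Smc2, Anln and Nusap1 (0.20).

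Of the 9 genes of entry into mitosis, 9 were below 0 on the Tcf7l2null/Ascl2 OE array (median -1.12) and 9 above 0 on the Tcf7l2null array (median 0.58). Ccnb1, which encodes cyclin B1, stood at -0.92 on the Tcf7l2null/Ascl2 OE array, 0.11 on the Ascl2 OE array and 0.75 on the Tcf7l2null array, against 0.15 on the dsGFP self-self array. Cdk1, the kinase that cyclin B activates, stood at -0.44 (Tcf7l2null/Ascl2 OE), -0.0012 (Ascl2 OE) and 0.39 (Tcf7l2null), against 0.014 (dsGFP self-self). Its 2 probes disagreed, at -0.97 and 0.086 on the Tcf7l2null/Ascl2 OE array, so that the mean of -0.44 describes neither. Foxm1, a forkhead transcription factor that drives late cell cycle genes, had -1.12 (Tcf7l2null/Ascl2 OE), -0.14 (Ascl2 OE) and 0.46 (Tcf7l2null), against 0.14 (dsGFP self-self). Melk, a protein kinase of dividing cells, was the lowest of this role at -1.56, and Ccna2, which encodes cyclin A2, was at -1.41 on that array. Cks2, a small partner of cyclin-dependent kinases, was the highest member on the Tcf7l2null array at 0.87, where the dsGFP self-self array gave 0.39.

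The kinases Plk1 and Aurora and the chromosomal passenger complex, which correct faulty attachments at the centromere, had one direction on each of these arrays: 7 of 7 genes were below 0 on the Tcf7l2null/Ascl2 OE array, 5 of them by at least 2-fold (median -1.22), and 7 of 7 were between 0.50 and 0.67 on the Tcf7l2null array. Plk1, a kinase of centrosome maturation and mitotic entry, had -1.31 (Tcf7l2null/Ascl2 OE), -0.084 (Ascl2 OE) and 0.67 (Tcf7l2null), against -0.071 (dsGFP self-self). Aurka, which acts at the spindle poles with its activator Tpx2, had -1.22 (Tcf7l2null/Ascl2 OE), -0.061 (Ascl2 OE) and 0.50 (Tcf7l2null), against 0.087 (dsGFP self-self). On the Ascl2 OE array the 7 genes of this role lay between -0.084 and 0.12, and 4 of them (Plk1, Aurka, Tpx2 and Incenp) were below both of their self-self values, as were 30.8% of all genes. Aurkb, the kinase of the passenger complex, had -0.71 (Tcf7l2null/Ascl2 OE), 0.12 (Ascl2 OE) and 0.59 (Tcf7l2null), against 0.29 (dsGFP self-self). Birc5 (survivin), a targeting subunit of that complex, had -1.14 (Tcf7l2null/Ascl2 OE), 0.054 (Ascl2 OE) and 0.64 (Tcf7l2null), against 0.19 (dsGFP self-self). Incenp, its scaffold, was lowest of the role at -1.38.

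Among the 7 genes of chromosome structure, Mki67, which encodes the coat protein of mitotic chromosomes used as the proliferation marker Ki-67, had -1.76 (Tcf7l2null/Ascl2 OE), -0.64 (Ascl2 OE) and 0.24 (Tcf7l2null), against -0.26 (dsGFP self-self). It was thus low on both arrays labelled with Ascl2 overexpression in this experiment, and beyond its self-self values on each. On the Tcf7l2null array Mki67 was within its self-self values, as the VillinCreERT2 self-self array gave 0.27. Top2a, the topoisomerase that untangles sister chromatids, had -0.81 (Tcf7l2null/Ascl2 OE), -0.42 (Ascl2 OE) and 0.54 (Tcf7l2null), against -0.22 (dsGFP self-self), with probes at -1.35 and -0.26 on the first of these arrays. Smc2, a core subunit of condensin, had -0.69 (Tcf7l2null/Ascl2 OE), -0.58 (Ascl2 OE) and 0.046 (Tcf7l2null), against -0.27 (dsGFP self-self). Ncaph, the condensin subunit that closes the ring, had -1.21 (Tcf7l2null/Ascl2 OE), -0.42 (Ascl2 OE) and 0.58 (Tcf7l2null), against -0.35 (dsGFP self-self). On the Ascl2 OE array 6 of 7 genes of this role were below both self-self arrays and their median was -0.42, while 30.8% of all genes were below both.

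All 7 genes of the centromere and kinetochore were below both self-self arrays on the Tcf7l2null/Ascl2 OE array and above both on the Tcf7l2null array (Cenpa against 1 self-self array). Cenpa, the histone H3 variant that marks centromeres, had -0.93 on the Tcf7l2null/Ascl2 OE array, 0.30 on the Ascl2 OE array and 0.51 on the Tcf7l2null array; it has no value on the dsGFP self-self array, where its spot was an outlier, and had -0.15 on the VillinCreERT2 self-self array. Ndc80, the microtubule-binding subunit of the kinetochore, had -0.82 (Tcf7l2null/Ascl2 OE), -0.0028 (Ascl2 OE) and 0.66 (Tcf7l2null), against -0.062 (dsGFP self-self). Its partner Nuf2 was the lowest of this role on the Tcf7l2null/Ascl2 OE array, at -1.45. Of the 3 spindle checkpoint genes above background there, Bub1b was at least 2-fold lower (-1.11), and Ttk, the checkpoint kinase Mps1, has only the uncertain value given above. Bub1, a checkpoint kinase, had -0.44 (Tcf7l2null/Ascl2 OE), 0.041 (Ascl2 OE) and 0.28 (Tcf7l2null), against 0.093 (dsGFP self-self), and its 2 probes stood apart, at -0.99 and 0.10 on the first array. Mad2l1, which inhibits Cdc20 at unattached kinetochores, had -0.65 (Tcf7l2null/Ascl2 OE), 0.17 (Ascl2 OE) and 0.70 (Tcf7l2null), against 0.075 (dsGFP self-self).

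The 9 kinesins, motors that move along or depolymerise microtubules, covered a wide range on the Tcf7l2null/Ascl2 OE array, between -2.11 and -0.43. Kif20a, a motor of the spindle midzone needed for cytokinesis, was the lowest of the 51 members above background, with -2.11 (Tcf7l2null/Ascl2 OE), -0.69 (Ascl2 OE) and 0.29 (Tcf7l2null), against -0.44 (dsGFP self-self). Kif22, a motor bound to chromosome arms, had -1.51 (Tcf7l2null/Ascl2 OE), -0.093 (Ascl2 OE) and 0.59 (Tcf7l2null), against -0.074 (dsGFP self-self). Kif11, the motor that pushes spindle poles apart, had -0.52 (Tcf7l2null/Ascl2 OE), -0.056 (Ascl2 OE) and 0.31 (Tcf7l2null), against -0.075 (dsGFP self-self), with both values of the arrays that carry Tcf7l2null material outside its self-self values. Of the 5 genes of the midzone and cytokinesis, Prc1, which bundles midzone microtubules, had -1.56 (Tcf7l2null/Ascl2 OE), -0.28 (Ascl2 OE) and 0.47 (Tcf7l2null), against -0.17 (dsGFP self-self). Anln (anillin), a scaffold of the contractile ring, had -0.31 (Tcf7l2null/Ascl2 OE), -0.15 (Ascl2 OE) and 0.20 (Tcf7l2null), against -0.023 (dsGFP self-self), the smallest difference of the group on the first array.

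Among the 4 genes of anaphase and mitotic exit, Cdc20, the activator of the anaphase-promoting complex whose promoter is printed above, had -1.48 (Tcf7l2null/Ascl2 OE), 0.032 (Ascl2 OE) and 0.71 (Tcf7l2null), against 0.06 (dsGFP self-self). Ube2c, the conjugating enzyme of that complex, had -1.21 (Tcf7l2null/Ascl2 OE), 0.093 (Ascl2 OE) and 0.77 (Tcf7l2null), against -0.12 (dsGFP self-self). Espl1 (separase) had -0.94 (Tcf7l2null/Ascl2 OE), -0.33 (Ascl2 OE) and 0.42 (Tcf7l2null), against -0.19 (dsGFP self-self). Pttg1 (securin), the inhibitor of separase, had 0.49 (Tcf7l2null/Ascl2 OE), 0.55 (Ascl2 OE) and 0.23 (Tcf7l2null), against 0.24 (dsGFP self-self), and was the only member above 0 on the Tcf7l2null/Ascl2 OE array. Its single probe was 0.57 on the Ascl2null array as well, and below 0 on both arrays of experiment 1, where most members were above 0. A single probe measures it, and whether that probe reads Pttg1 alone was not tested.

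**Figure D2:**
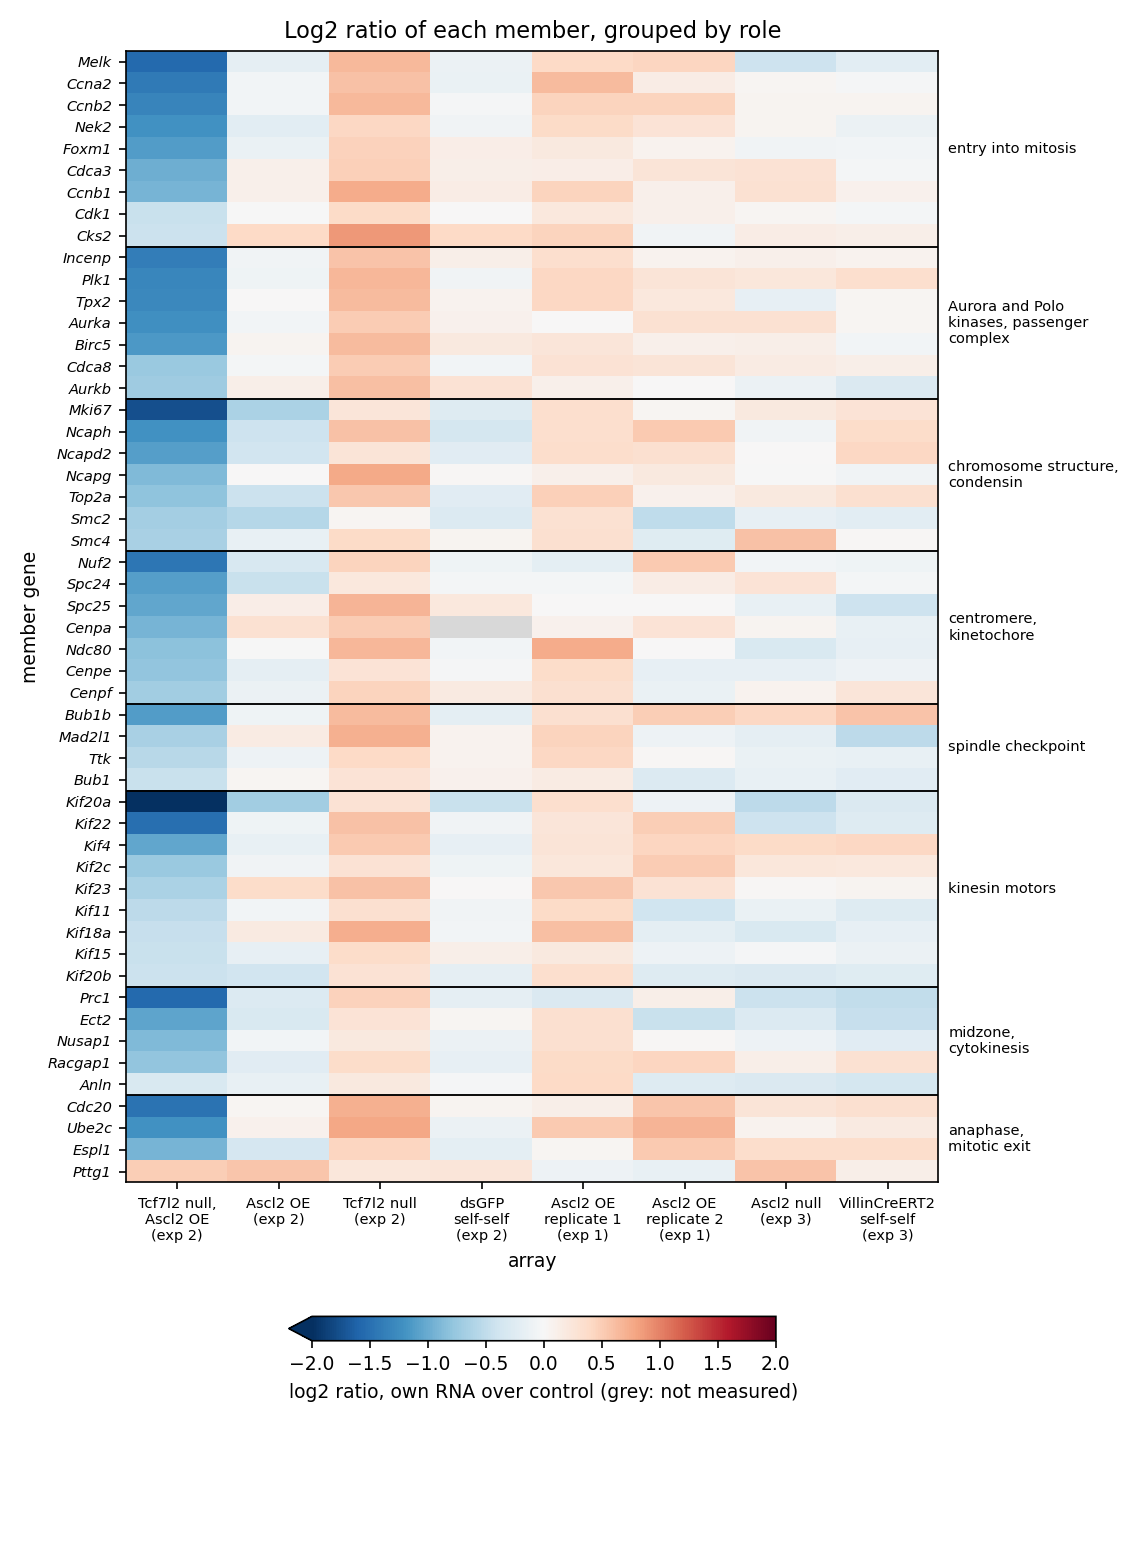
Log2 ratio of own RNA over control for each of the 52 genes (rows, by role and then by value in the first column) on each array (columns); blue is lower than control, red higher, and grey the missing Cenpa value. The first column is blue for 51 rows and the Tcf7l2null column red for all 52.

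The members' order on the Tcf7l2null/Ascl2 OE array went with their signal. The 26 genes with the brighter dsGFP signal (645 to 8851.5 scanner units net of background) had a median of -1.22 with 19 at least 2-fold lower, and the 26 dimmer ones (91.5 to 635 units) had -0.73 with 5. With the scanner's own ratio, which adds no offset to the signals, the medians were -1.34 and -1.40, with 22 and 20 at least 2-fold lower. The 2 ways also differ in background handling and normalisation, and which step sets the gap for dim genes was not tested, so a small value for a dim gene such as Anln (-0.31, and -0.90 by the scanner's own ratio) is a weak statement about its size. Of 25 members with several probes, 9 had probes more than 1 log2 unit apart on this array and 3 had probes of opposite sign. On it 79 of 83 probes were below 0, and 79 of 83 were above 0 on the Tcf7l2null array. The probes below 0 on the Tcf7l2null array belong to Smc2 (-0.38 and -0.091), Bub1 (-0.13) and Ect2 (-0.12), each with other probes above 0.

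**Figure D3:**
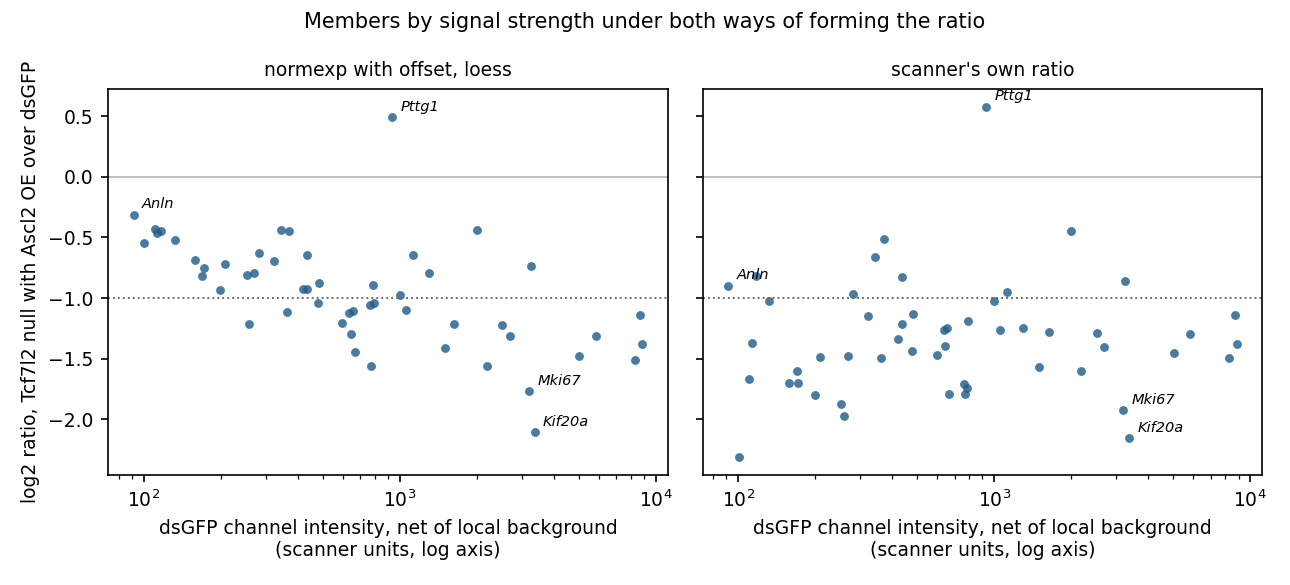
Log2 ratio on the Tcf7l2null/Ascl2 OE array against the net dsGFP signal of each member (log axis), with background correction by normexp and an offset (left) and as the scanner's own ratio (right); the dotted line is 2-fold lower. On the left the 26 dimmer genes have a median of -0.73 and the 26 brighter ones -1.22, and on the right -1.40 and -1.34.

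Genes outside the group were read in the same way. Of 108 other mitosis genes measured, 95 were below 0 on the Tcf7l2null/Ascl2 OE array (median -0.37), 16 of them at least 2-fold lower, and 90 were above 0 on the Tcf7l2null array (median 0.29). The lowest on the first were Pbk, a mitotic kinase (-1.85), Cks1b (-1.74) and Kntc1 (-1.59), and the highest Anapc10 (0.43), Ncapd3 (0.35) and Cenpl (0.27). On the Tcf7l2null array the highest were Fam64a (0.99), Tacc3 (0.85) and Sgol1 (0.83), and the lowest Ndel1 (-0.43), Hjurp (-0.29) and Cenpb (-0.23). On the Ascl2 OE array the lowest were Kifc1 (-1.35), Kntc1 (-0.86) and Hjurp (-0.82), and the highest Anapc10 (0.51), Nek7 (0.47) and Clasp2 (0.38). Of 50 DNA replication genes measured, such as the Mcm helicase genes, 47 of the 49 with a value were below 0 on the Tcf7l2null/Ascl2 OE array (median -1.11), 30 at least 2-fold, and 50 of 50 were above 0 on the Tcf7l2null array (median 0.43); on the Ascl2 OE array their median was -0.22.

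**Figure D4:**
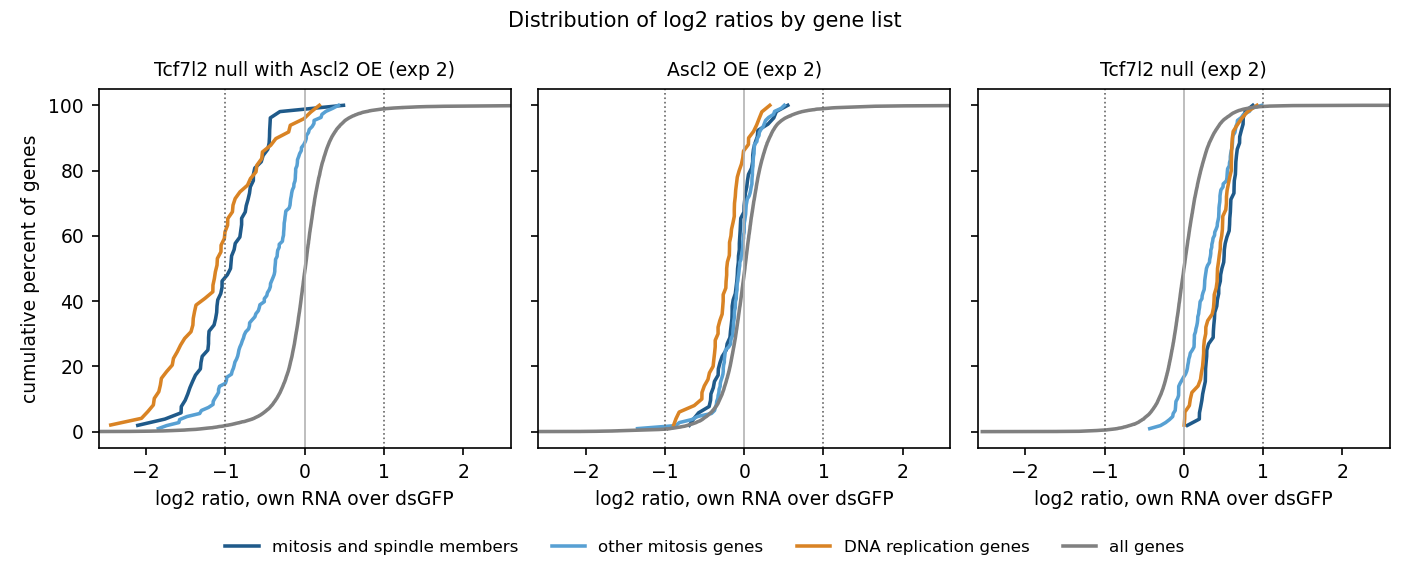
Cumulative percent of genes by log2 ratio over dsGFP for the mitosis and spindle members, 108 other mitosis genes, 50 DNA replication genes and all genes, on the 3 arrays of experiment 2. The lists lie left of all genes on the Tcf7l2null/Ascl2 OE array (medians -0.93, -0.37 and -1.11) and right of it on the Tcf7l2null array (0.49, 0.29 and 0.43).

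Markers of intestinal cell types differed on the same arrays. On the Tcf7l2null/Ascl2 OE array 6 of 6 Paneth markers were below 0 (median -1.69, -2.80 to -0.74), as were 17 of 18 crypt base columnar stem cell markers (median -0.64, -4.84 to 0.14); 8 of 10 tuft markers (median 0.98) and 14 of 18 enteroendocrine markers (median 0.62) were above 0, and so were 12 of 23 enterocyte markers (median 0.10). On the Tcf7l2null array 21 of 22 enterocyte markers were below 0 (median -0.67) and 13 of 18 stem cell markers above 0 (median 0.37). On the Ascl2 OE array 6 of 6 Paneth markers (median -1.73), 19 of 23 enterocyte markers (median -0.51) and 14 of 18 stem cell markers (median -0.36) were below 0, while 7 of 10 tuft markers (median 0.69), 10 of 18 enteroendocrine markers (median 0.23) and 5 of 8 goblet markers (median 0.11) were above 0. Ascl2 itself is among the stem cell markers. The part of these markers in the members' values was not tested. In RNA of whole cultures, fewer dividing cells and less mitotic RNA per cell cannot be told apart.

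In experiment 1, which has replicated arrays, the members leaned higher in organoids labelled Ascl2 OE than in VillinCreERT2 organoids, but none passed the test. The shared label does not make these arrays replicates of the Ascl2 OE array of experiment 2. Over all probes kept, replicates 1 and 2 correlated with that array at 0.11 and 0.093, and with the Tcf7l2null array at 0.53 and 0.46. On replicate 1 the median was 0.32 and on replicate 2 0.10. For the mean of both it was 0.19, with 46 of 52 above 0 (50.2% of all genes). Above both self-self arrays were 40 of 52 on replicate 1 (35.7% of all genes) and 26 on replicate 2 (33.5%). Below both were 3 (34.1%) and 10 (37.1%). Over all probes kept, replicate 2 correlated more with the VillinCreERT2 self-self array (0.46) than with replicate 1 (0.35), so its values are weak evidence of a lean. In limma with Benjamini-Hochberg adjustment over 19166 genes, 0 of 52 members and 190 genes (0.991%) passed an adjusted p of 0.05. At an unadjusted p under 0.05 there were 14 of 52 members, all higher, against 15.0% of all genes in either direction and 6.90% higher. The smallest adjusted p was that of Ube2c, 0.0818 by limma, with an estimate of 0.60 ± 0.12 (SE) and 0.52 and 0.67 on replicates 1 and 2.

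The count of all genes depended on the scaling: 1 gene passed with the scanner's own ratio, 1 with median centring, 11 with the authors' deposited table and 82 without background subtraction, with 0 of 52 members in each. Both counts depended on single arrays. Without the VillinCreERT2 self-self array, 9 of 51 members passed in limma (Bub1b, Ccnb2, Kif22, Kif23, Kif2c, Melk, Ncaph, Racgap1 and Ube2c, all higher) among 1903 genes; without the dsGFP self-self array 0 of 52 passed among 3 genes, without replicate 1 0 of 51 among 2 genes and without replicate 2 0 of 51 among 2 genes. With all arrays 190 genes passed, so leaving out the VillinCreERT2 self-self array raised the count of all genes as well. On that array the 9 members ranged from -0.26 for Kif22 to 0.57 for Bub1b, with Ncaph at 0.36 and Melk at -0.20. With no dye term 1 member, Ube2c, passed (adjusted p 0.0324 by limma) among 582 genes, a smaller share than that of all genes. The replicates differed most for Smc2 (0.31 and -0.50), Kif18a (0.60 and -0.19), Ect2 (0.32 and -0.45) and Kif11 (0.38 and -0.39), each higher than control on replicate 1 and lower on replicate 2.

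The following values of experiment 1 are those of replicates 1 and 2, in that order, by role. Ccnb1 had 0.45 and 0.10, Ccnb2 0.44 and 0.44 and Melk 0.39 and 0.43, close on both arrays for Ccnb2 and Melk. Cdk1 had 0.20 and 0.095 and Foxm1 0.19 and 0.072. All 9 genes of mitotic entry had estimates above 0, from 0.13 to 0.44. Plk1 had 0.42 and 0.26, Aurka 0.0068 and 0.31, Aurkb 0.10 and 0.011 and Birc5 0.24 and 0.11, all above 0 on both arrays. Mki67 had 0.33 and 0.045, Top2a 0.48 and 0.081 and Ncaph 0.34 and 0.52. Cenpa had 0.086 and 0.28 and Ndc80 0.74 and 0.0058, and Ndc80 was high on replicate 1 alone. Bub1 had 0.16 and -0.27 and Mad2l1 0.44 and -0.099, of opposite sign on the 2 arrays, as was Kif20a with 0.33 and -0.098. Kif22 had 0.25 and 0.50, and its estimate was 0.37 ± 0.10 (SE). Prc1 had -0.29 and 0.11 and Anln 0.41 and -0.26, while Cdc20 had 0.11 and 0.55, Espl1 0.046 and 0.53 and Pttg1 -0.098 and -0.15. Pttg1 was thus the lowest member in experiment 1 by its estimate, -0.12 ± 0.11 (SE).

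**Figure D5:**
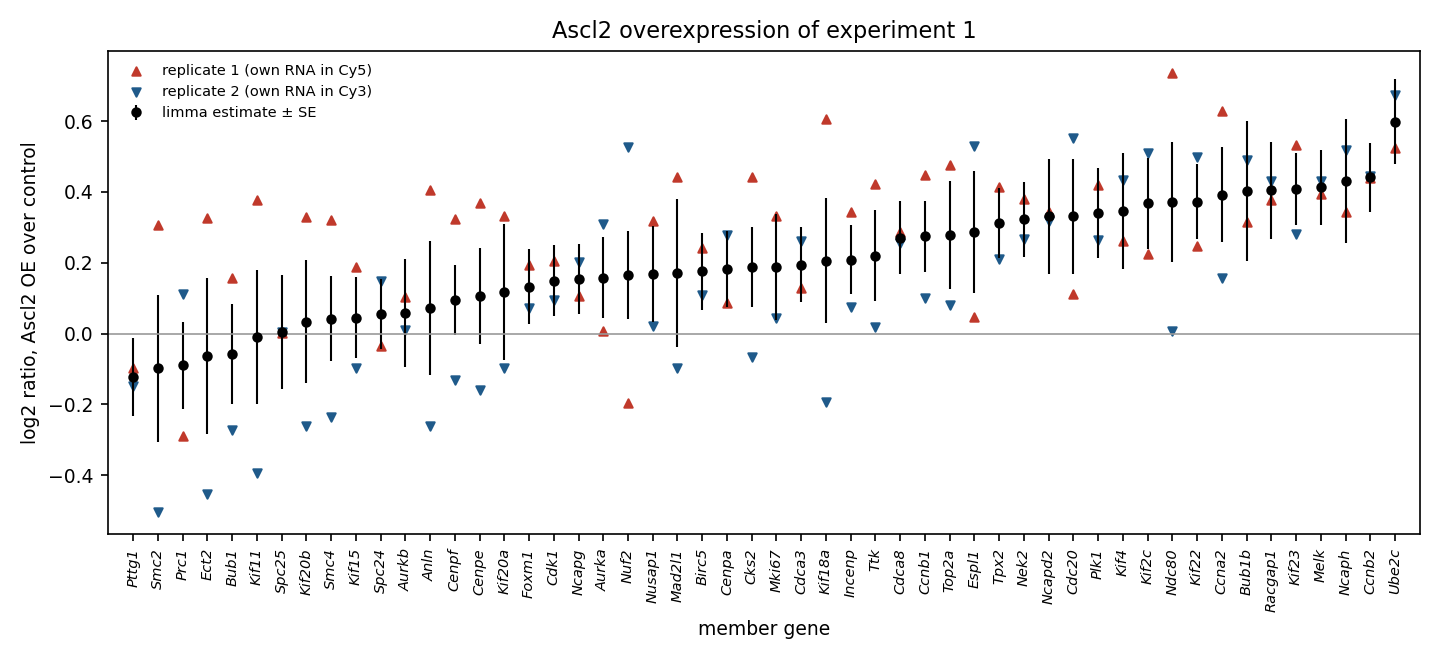
Log2 ratio of Ascl2 OE over VillinCreERT2 organoids in experiment 1 for each of the 52 genes, sorted by the limma estimate (black, ± SE), with replicate 1 as red triangles and replicate 2 as blue triangles. Estimates run from -0.12 for Pttg1 to 0.60 for Ube2c, and 46 of 52 are above 0.

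Of the other mitosis genes, 1 of 108 passed in experiment 1, Fam64a (0.97 ± 0.12 SE, adjusted p 0.035 by limma), which was 0.80 and 1.14 on replicates 1 and 2; of the DNA replication genes 0 of 50 passed, with 13 higher and none lower at an unadjusted p under 0.05 in limma. Among the cell type markers, 7 of 23 enterocyte markers (median -0.70) and 5 of 18 enteroendocrine markers (median -0.44) passed as lower, and 2 of 18 stem cell markers as higher (median 0.37), beside which the part of cell makeup in the members' values was not tested.

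The 2 experiments with Ascl2 overexpression were compared directly. Their difference, experiment 2 minus experiment 1, had a median of -0.35 over the members, and 0 of 52 passed in limma (135 genes, 0.705% of all, did), with 9 of 52 at an unadjusted p under 0.05, 8 of them lower, against 8.40% of all genes in either direction and 3.87% lower. Mki67 had the smallest adjusted p, 0.382 by limma, with -0.90 ± 0.28 (SE), and Pttg1 was the 1 member higher in experiment 2 at an unadjusted p under 0.05 (0.57 ± 0.20 SE, adjusted p 0.495 by limma). The number of all genes passing was 11 without replicate 1 of experiment 1, 23 without the dsGFP self-self array and 493 without the VillinCreERT2 self-self array; no member passed without any of them. The experiments differ in the control culture and the slide as well, which cannot be told apart from a difference in the Ascl2 effect. With 1 Ascl2 effect shared by the 3 arrays, 0 of 52 members passed (20 genes, 0.104% of all, did), with 5 of 52 at an unadjusted p under 0.05, all higher, against 12.6% of all genes in either direction and 5.93% higher. Kif23, a kinesin of the central spindle, had the smallest adjusted p, 0.141 by limma, at 0.38 ± 0.08 (SE); it was 0.53 and 0.28 in experiment 1 and 0.37 in experiment 2. The count of all genes was 0 without any 1 of the self-self arrays or replicates of experiment 1, and 190 without the array of experiment 2.

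On the Ascl2 OE array of experiment 2 the 3 highest members were Pttg1 (0.55), Cks2 (0.41) and Kif23 (0.37), and the 3 lowest Kif20a (-0.69), Mki67 (-0.64) and Smc2 (-0.58). Cks2 was close to its dsGFP self-self value of 0.39, and Kif20a was -0.44 on that self-self array. Below both self-self arrays were 23 of 52 members, where 30.8% of all genes were, and above both 9, where 34.5% were.

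In Ascl2null organoids the members did not lean one way. Their median was 0.028, with 28 of 52 above 0 (51.0% of all genes) and none at 2-fold (2.12% of all genes were at least 2-fold higher and 1.36% lower). With median centring in place of loess 14 of 52 were above 0, and the median was -0.16, beside -0.06 for all genes. The VillinCreERT2 self-self array gave a median of -0.044, and values there reached from -0.53 to 0.57. Above both self-self arrays were 16 of 52 (34.9% of all genes), and below both 10 of 52 (35.0%). The 3 highest were Smc4, a condensin core subunit (0.58), Pttg1 (0.57) and Bub1b (0.41), and the 3 lowest Kif20a (-0.52), Prc1 (-0.43) and Kif22 (-0.42). Bub1b was higher still on the self-self array (0.57), while Smc4 stood there at 0.016.

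The values of other members in experiment 3 are given here for the Ascl2null array and then the VillinCreERT2 self-self array. Ccnb1 had 0.31 and 0.08, Cdk1 0.033 and -0.043 and Foxm1 -0.074 and -0.062. Plk1 had 0.22 and 0.33, Aurka 0.30 and 0.032, Aurkb -0.11 and -0.29 and Birc5 0.12 and -0.05. Of these kinases and their partners, Aurka was the one farthest above its self-self value. Mki67 had 0.20 and 0.27, Top2a 0.19 and 0.31, Smc2 -0.17 and -0.21 and Ncaph -0.064 and 0.36. Cenpa had 0.053 and -0.15, Ndc80 -0.30 and -0.16, Bub1 -0.14 and -0.22 and Mad2l1 -0.17 and -0.53. In these kinetochore and checkpoint genes the signs agreed between the arrays for Ndc80, Bub1 and Mad2l1 and differed for Cenpa. Kif11 had -0.14 and -0.26 and Anln -0.30 and -0.35, and Cdc20 had 0.25 and 0.33, Ube2c 0.075 and 0.19 and Espl1 0.35 and 0.35. On the same Ascl2null array 38 of 50 DNA replication genes were below 0 (median -0.19) and 70 of 108 other mitosis genes (median -0.11, lowest Hjurp at -0.93, Ran at -0.66 and Rad21 at -0.60). All 17 measured stem cell markers, among them the deleted gene Ascl2 itself (-1.07), were below 0 there (median -0.55). Of the enteroendocrine markers 13 of 18 were above 0 (median 1.64), and the part of both lists in the members' values was not tested.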

How the data were processed

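RNA of organoid cultures was measured on 8 2-colour Agilent 4x44K mouse arrays, 6 with a culture against its control and 2 self-self. Each labelling used 500 ng of total RNA, per the labels' protocols. The deposited scanner files hold spot intensity and local background intensity per channel and a log10 ratio of Cy5 over Cy3, made with Feature Extraction 10.5.1.1 per the file headers. The values deposited by the authors as a table are log2 ratios; in experiments 2 and 3, 100% of its values lay within 0.02 of the scanner ratio, uncentred, and in experiment 1, 91.3% and 91.5% did, with replicate 2 turned. Its medians per array were between -0.01 and 0.03. How the remaining values were made is not given in these sources.

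The median spot intensities were background-corrected with normexp (offset 50) and normalised by loess within arrays (R 4.3.3, limma 3.58.1), which sets most genes near 0. On replicate 2 of experiment 1, 45 spots in Cy5 and 29 in Cy3 had a local background above the spot by more than 100 units, and the background fit then gave a standard deviation of 3354.3 and 4052.1 units, against at most 16.8 on the other arrays. Local backgrounds that the scanner software marked as outliers were therefore replaced, on every array, by the channel's median. This was chosen after seeing the data; with the backgrounds kept as given, 31 of 52 members lay within 0.05 of 0 on that array, against 6 here. Outlier spots were left out. A gene's value is the mean of its kept probes (27644 of 41174), named by the files' own symbols.

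limma was fitted over all 8 arrays with a dye term and an effect per condition, leaving 2 residual degrees of freedom, or with 1 Ascl2 effect for 3 arrays, leaving 3. P-values are two-sided and adjusted over all genes by the Benjamini-Hochberg method at 0.05. The fit was tested on simulated data. A fit leaves out a missing array for a gene (the dsGFP self-self array for Cenpa). Conditions with 1 array have counts at 2-fold and no test. The number of arrays limits the precision. Each experiment has its own slide, so slide and experiment cannot be told apart. Named were 24 members fixed by role and the 3 highest and 3 lowest of each comparison. Of the other mitosis genes, the 3 highest and lowest on each array of experiments 2 and 3 were named. Ccna2, Ccnb2, Cdca3, Ect2, Incenp, Kif18a, Kif2c, Kif4, Melk, Ncapd2, Nuf2, Racgap1, Spc25, Tpx2 and Ttk were named after their values were seen. The members and lists were chosen with earlier results of these data known. The shares of proteins with a KEN box, which had been planned, were not run.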

Additional observations from a re-analysis of the deposited data

How the results depend on the processing

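The direction of the members' median held under every alternative run on the Tcf7l2null/Ascl2 OE array (-1.46 to -0.84) and the Tcf7l2null array (0.43 to 0.92). On the Ascl2 OE array of experiment 2 (-0.12 to 0.065) and the Ascl2null array (-0.16 to 0.034) it crossed 0. The values 0.065 and -0.16 came with median centring, where the medians of all genes were 0.049 and -0.06. Of the values compared, 145 moved by less than the standard deviation of the experiment 1 replicate medians (0.15), or by no more than 1.5 times for a count, and 25 by more. Many of the 145 are counts of members that were 0 in both runs. Of the single members' values on the Tcf7l2null/Ascl2 OE array, 299 moved by less than that standard deviation and 117 by more. With the scanner's log ratio, the median was -1.38 for Tcf7l2null/Ascl2 OE with 42 at 2-fold, -1.97 for its difference to Tcf7l2null, and -1.26 with 37 at 2-fold for its difference to Ascl2 OE; 2 members were at 2-fold for Tcf7l2null and 1 for Ascl2 OE. With the authors' deposited table, the corresponding values were -1.46 with 45, -2.03, and -1.31 with 41, with 1 member at 2-fold for Tcf7l2null and 1 for Ascl2 OE. Relative to the median of all genes, the members' median for Tcf7l2null/Ascl2 OE was -1.41 with the scanner's log ratio and -1.5 with the deposited table. It was -0.94 as reported. The counts at 2-fold under the alternatives have no share of all genes beside them. With median centring, which put the median of all genes on the Tcf7l2null array at 0.12, the members' median there was 0.92 with 16 at 2-fold, 14 were at 2-fold for Tcf7l2null/Ascl2 OE, its difference to Tcf7l2null was -1.70, and Ascl2null gave -0.16. The brightest probe of each gene gave -1.14 for Tcf7l2null/Ascl2 OE, -1.72 for its difference to Tcf7l2null and -1.06 for that to Ascl2 OE, and probes above background on all 8 arrays gave -1.58 for the difference to Tcf7l2null. The cause was not tested.

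In experiment 1, 1 member passed with no dye term (among 582 genes) and 0 to 9 with an array left out, the highest without the VillinCreERT2 self-self array; for the difference between experiments and for the shared effect 0 passed under all alternatives. The count of all genes in experiment 1, 190 as reported, was 0 with backgrounds kept as given, 1 with the scanner ratio, 1 with median centring, 11 with the authors' deposited table and 82 without background subtraction. For the difference between experiments it was 135, against 0 with median centring and 329 with no dye term. For the shared effect it was 20, against 0 with the scanner ratio, median centring, the authors' deposited table, kept backgrounds or a dye term per slide, 11 with the brightest probe, 47 with no filter on dim probes and 191 with no dye term. A dye term per slide left no degrees of freedom for the other comparisons. The value of Ttk on the Tcf7l2null/Ascl2 OE array is uncertain, because its own-RNA signal was not well above background. Each ratio already sets own RNA against control RNA on the same array. No further pairing between arrays was possible, because only experiment 1 carries replicate numbers.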

Other observations

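Hjurp, the chaperone that places the centromeric histone Cenpa, was -0.69 on the Tcf7l2null/Ascl2 OE array, -0.82 on the Ascl2 OE array of experiment 2 and -0.29 on the Tcf7l2null array, against -0.26 on the dsGFP self-self array, and -0.93 on the Ascl2null array, against 0.12 on the VillinCreERT2 self-self array. Cenpa was -0.93, 0.30 and 0.51 on those arrays of experiment 2 and 0.053 on the Ascl2null array, so both genes were below 0 on the Tcf7l2null/Ascl2 OE array. Kifc1, a minus-end spindle motor, was -0.24 and 1.04 on replicates 1 and 2 of experiment 1 and -1.35 on the Ascl2 OE array of experiment 2, against -0.42 on the dsGFP and 0.65 on the VillinCreERT2 self-self array. These genes were named after their values were seen, each condition of experiments 2 and 3 has 1 array, and no difference between them was tested.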
